A study of Homo sapiens with 12 samples.

Results

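The genes described here are 36 genes of the hypoxia response and of glycolysis, read on 12 Illumina HumanHT-12 v4 bead arrays of 22Rv1 cells. A probe was taken when the array annotation gave it the symbol of 1 of these genes and its detection p-value was under 0.01 on 2 or more of the 12 arrays. Of the 67 probes so named, 52 met that threshold, of 19172 probes that met it on the array as a whole, and they measured 32 of the 36 genes. EGLN3, SLC2A3 and PDK1 had 1 probe each, detected on 0 arrays, and CA9 had no named probe here. A gene with several kept probes was read from the brightest of them, and the other 20 kept probes, spread over 14 genes, were tested beside it. The probe used was detected on all 12 arrays for 30 of the 32 genes, on 11 for VEGFA and on 10 for ANKRD37.

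22Rv1 is an epithelial cell line from a human prostate carcinoma xenograft. The study used 3 sublines of it, each carrying a hairpin switched on by doxycycline: a scrambled hairpin (SCR), or 1 of 2 hairpins against HNF4G (HNF4Gsh1, here hairpin 1, and HNF4Gsh2, hairpin 2), a nuclear receptor best known from epithelia of the gut. Each subline was kept without doxycycline (with vehicle, per the series' design text) or given doxycycline for 3 days, with 2 arrays for each of the 6 groups, all in RPMI medium with fetal bovine serum. The labels number the replicates without saying whether each came from its own culture. The p-values thus reflect array-to-array spread that may be technical. The labels give no clone, oxygen level or doxycycline dose. Each hairpin is represented by 1 subline, so a hairpin and its subline cannot be told apart.

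Median intensity was 92.5 to 108 and 14959 to 18293 probes were detected per array. Replicate 1 of the scrambled subline with doxycycline was the lowest in both, and every other array had a median of at least 97.2 and at least 15783 probes. The HNF4G probe was not well above background on any of the 4 arrays of induced HNF4G hairpins: its signal was at least 2.08-fold lower with hairpin 1 (adjusted p = 0.000801 in the limma fit across all genes; measured mean log2 4.78 against 6.24) and at least 2.48-fold lower with hairpin 2 (adjusted p = 8.50e-05; 4.53 against 6.45). Such a bound sets the brighter group against the lowest detected signal of each dim array. Of 12 markers of luminal prostate epithelium 10 were measured, with a summed intensity of 9906 to 19712. Of the marker lists of other cell types, 2 of 8 stromal genes (DCN and LUM), 2 of 8 blood and immune genes (CD68 and CD14) and 0 of 6 endothelial genes had a kept probe. Among all these markers 1 passed, the luminal gene FOLH1, which rose with hairpin 2 by 0.72 ± 0.16 (adjusted p = 0.0367), and its part in the results below was not tested.

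Cells sense oxygen through prolyl hydroxylases such as EGLN1, which mark the alpha subunits of hypoxia-inducible factor (HIF) for destruction while oxygen is present. When oxygen falls, HIF1A and its relatives accumulate, pair with ARNT and bind hypoxia response elements whose core is ACGTG or GCGTG. Their targets bring in glucose, speed glycolysis to lactate, spare the mitochondria and call in blood vessels, and many of them are also active in well-oxygenated tumour cells.

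Promoter sequence was examined because many HIF targets carry that core near their start. RefSeq windows of the GRCh38.p14 assembly, running from 250 bases before to 50 bases after each start, were matched for 32 of the 36 genes; VEGFA, BNIP3L, NDRG1 and SLC2A3 were not matched. ACGTG, on either strand, was present in 14 of 32 windows (43.8%), against 21.4% of 35116 windows of the same length, and GCGTG in 15 (46.9%) against 36.5%. At least 1 of the 2 cores stood in 23 windows (71.9%) against 48.4% of all. The E-box CACGTG, which holds ACGTG on both strands and is also bound by factors of the MYC family, was in 5 windows (15.6%) against 7.26%. The comparison windows were not limited to genes tested on these arrays, and base composition was not matched. A match is a run of letters and was not tested as a binding site.

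The windows of 3 genes whose array values are described in detail below are printed 5′ to 3′ on the plus strand, on which all 3 genes lie, with each ACGTG or GCGTG core (either strand) in capitals. DDIT4 (chr10:72273674-72273973) held 1 ACGTG and 3 GCGTG cores. ANKRD37 (chr4:185396591-185396890) held 3 ACGTG matches, 2 of them in its E-box. AK4 (chr1:65147302-65147601), a HIF target outside the 36 genes, held 2 ACGTG matches, both in 1 E-box, and 1 GCGTG.
DDIT4: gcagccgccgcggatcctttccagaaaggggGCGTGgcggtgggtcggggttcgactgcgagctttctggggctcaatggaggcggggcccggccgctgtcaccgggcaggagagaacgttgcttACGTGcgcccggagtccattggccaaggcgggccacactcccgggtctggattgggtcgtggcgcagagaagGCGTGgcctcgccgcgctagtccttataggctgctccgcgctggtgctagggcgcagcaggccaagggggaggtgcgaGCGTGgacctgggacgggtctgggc
ANKRD37: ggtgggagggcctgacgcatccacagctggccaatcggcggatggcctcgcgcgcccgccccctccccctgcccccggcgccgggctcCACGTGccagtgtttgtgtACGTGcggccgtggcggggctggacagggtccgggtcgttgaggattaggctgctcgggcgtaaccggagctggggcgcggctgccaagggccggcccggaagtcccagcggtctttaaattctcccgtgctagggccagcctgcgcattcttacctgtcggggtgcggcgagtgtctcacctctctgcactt
AK4: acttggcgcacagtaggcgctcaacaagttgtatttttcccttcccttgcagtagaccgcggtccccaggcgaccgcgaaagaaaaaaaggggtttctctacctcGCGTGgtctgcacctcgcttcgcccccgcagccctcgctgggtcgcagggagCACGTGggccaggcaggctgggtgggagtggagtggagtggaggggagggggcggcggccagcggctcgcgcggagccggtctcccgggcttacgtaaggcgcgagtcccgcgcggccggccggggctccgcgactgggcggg

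Of the 32 measured genes, 1 passed the test with doxycycline in the hairpin 2 subline (BNIP3L, which fell), 0 passed the test in the hairpin 1 subline and 0 in the scrambled subline. The test was limma on normalized log2 intensities over 11164 genes, with Benjamini-Hochberg adjustment over all of them and a threshold of 0.05. Of all genes, 2.07% passed with hairpin 2, 1.06% with hairpin 1 and 0.0269% in the scrambled subline, so the count among the 32 is near the background. At an unadjusted p under 0.05, 8 of 32 passed with hairpin 2 (15.4% of all genes), 8 with hairpin 1 (12.3%) and 6 in the scrambled subline (9.64%). None passed in the mean response of both hairpins minus that of the scrambled subline (0.269% of all genes passed), with 7 at an unadjusted p under 0.05 (12.2%). Likewise 0 of 32 passed in the response to hairpin 1 minus that of the scrambled subline (6 unadjusted, 10.9% of all genes) and in that to hairpin 2 minus it (7 unadjusted, 12.9%), where 0.314% and 0.322% of all genes passed.

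Most changes with doxycycline were small, and in each subline more of them lay below 0 than above. The log2 change was below 0 in 26 of 32 genes with hairpin 2, in 24 with hairpin 1 and in 19 in the scrambled subline, against 49%, 48.1% and 50.9% of all genes. The median changes of the 32 were -0.22, -0.21 and -0.15, and the medians of all genes 0.01, 0.01 and -0.01. Both doxycycline arrays lay below both others in 19 genes with hairpin 2, 16 with hairpin 1 and 14 in the scrambled subline, where 23.6%, 20.5% and 20.1% of all genes did so. The median of the mean hairpin response minus the scrambled response was -0.07, with 20 of 32 differences below 0 (48.2% of all genes).

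**Figure D1:**
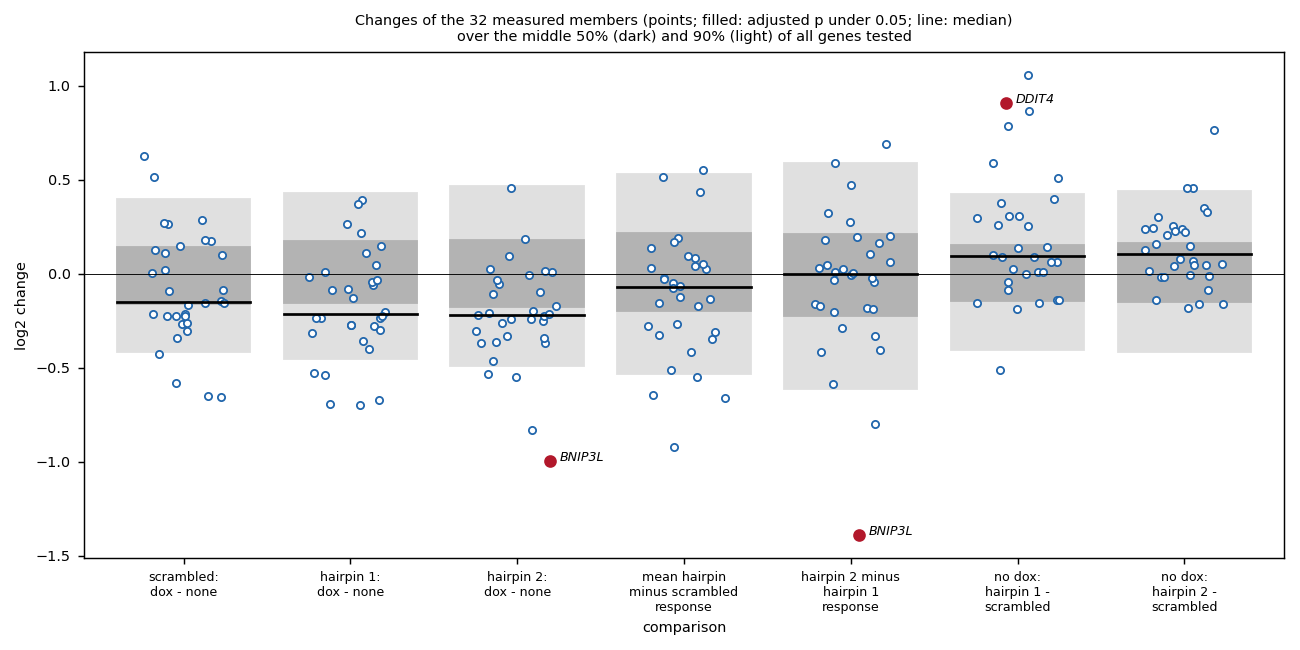
Each open point is the log2 change of 1 of the 32 measured genes in 7 comparisons, over grey bars for the middle 50% (dark) and 90% (light) of all 11164 genes tested, with the black line at the median of the 32. The filled points past an adjusted p of 0.05 are BNIP3L with hairpin 2 and between the hairpins and DDIT4 between uninduced sublines, and the medians of the 3 doxycycline comparisons lie at -0.15, -0.21 and -0.22.

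Without doxycycline the sublines already differed. DDIT4 was higher in the hairpin 1 subline than in the scrambled one, the 1 gene of 32 to pass (0.627% of all genes passed), and 7 had an unadjusted p under 0.05 (10.1% of all genes). With hairpin 2 against scrambled 0 passed (0.484% of all genes) and 3 had an unadjusted p under 0.05 (11.1%). The median differences were 0.09 and 0.10, with 9 of 32 below 0 in each, against 49.1% and 48.9% of all genes. Both comparisons use the same scrambled arrays, and the uninduced arrays of each hairpin are also the baseline of its doxycycline response, so a high uninduced level enters both comparisons with opposite signs.

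**Figure D2:**
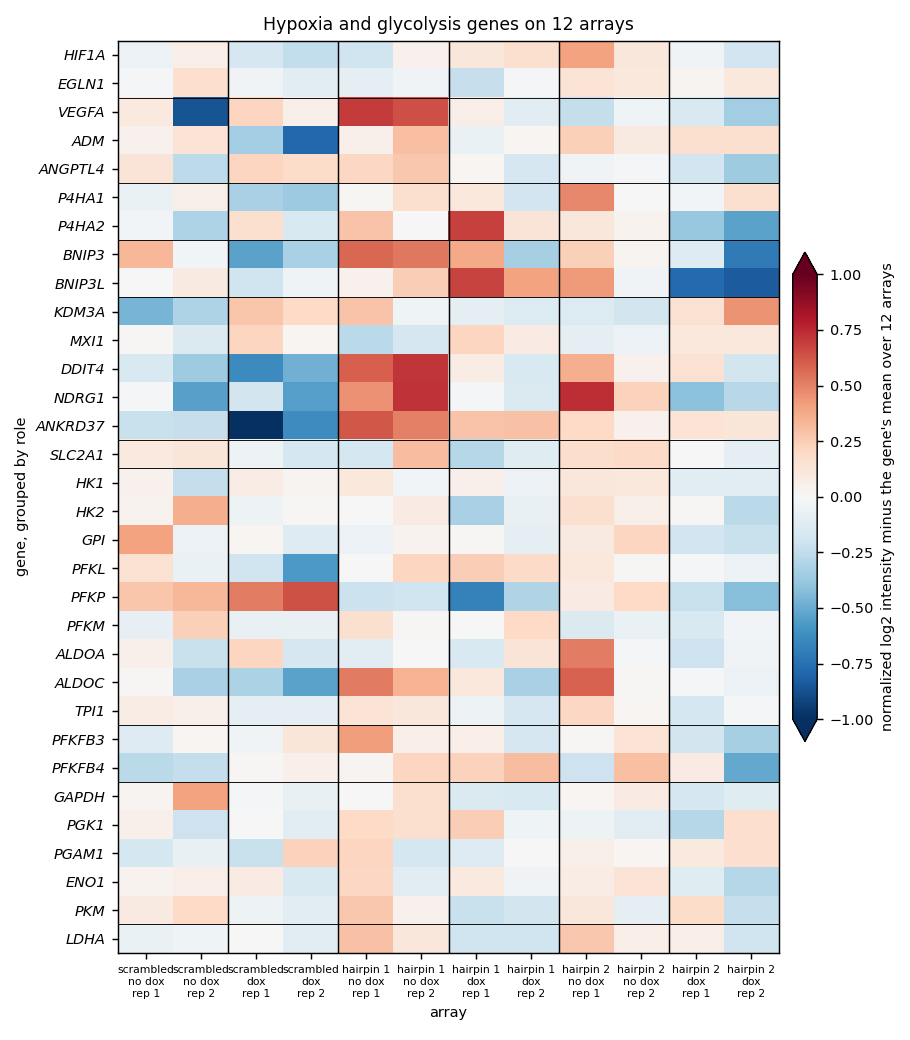
Colours give, for each of the 32 genes (rows, grouped by role) and each of the 12 arrays (columns), the normalized log2 intensity minus that gene's mean over the 12 arrays. DDIT4, NDRG1 and ANKRD37 are red on both uninduced hairpin 1 arrays, BNIP3L is dark blue on both hairpin 2 doxycycline arrays, and most glycolytic enzymes are pale throughout.

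HIF1A and the oxygen-sensing hydroxylase EGLN1 changed with doxycycline by -0.37 to 0.22 on the log2 scale and neither passed in any of the 9 comparisons. The extreme was HIF1A with hairpin 2 (-0.37 ± 0.16 SE, adjusted p = 0.277). Its other 2 probes gave 0.33 and 0.09 in that comparison, so the 3 probes of the gene did not share a direction.

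BNIP3 and BNIP3L encode receptors in the outer mitochondrial membrane that draw autophagosomes to mitochondria, and BNIP3L is also known for clearing mitochondria from maturing red cells. On the BNIP3L probe used, the hairpin 2 arrays read 9.65 and 9.18 without and 8.45 and 8.39 with doxycycline, on the normalized log2 scale. The hairpin 1 arrays read 9.26 and 9.47 without and 9.90 and 9.62 with it, and the scrambled arrays 9.22 and 9.31 without and 9.02 and 9.18 with it. The 2 induced hairpin 2 arrays were thus the lowest of the 12, and the 2 induced hairpin 1 arrays lay above both of their own controls.

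BNIP3L fell by 1.00 ± 0.18 (SE) with hairpin 2 (adjusted p = 0.0105). It changed by 0.39 ± 0.18 with hairpin 1 (adjusted p = 0.386) and by -0.17 ± 0.18 in the scrambled subline (adjusted p = 0.814). The responses to the 2 hairpins differed by -1.39 ± 0.25 (hairpin 2 minus hairpin 1, adjusted p = 0.0444), the 1 of 32 genes to pass there, where 0.206% of all genes did and 4 of the 32 had an unadjusted p under 0.05 (11% of all genes). The hairpin 2 response minus the scrambled one was -0.83 ± 0.25 and did not pass (adjusted p = 0.180).

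The second BNIP3L probe read 7.47 and 7.34 without and 6.31 and 6.29 with doxycycline on the hairpin 2 arrays. It also fell by 1.11 ± 0.21 (adjusted p = 0.0265 in the fit over all 19172 kept probes, where the first probe had 0.0212 and 0.97% of probes passed). On the hairpin 1 arrays it read 7.76, 7.24, 7.83 and 7.42 (doxycycline last), a change of 0.12, and on the scrambled arrays 7.35, 7.29, 6.63 and 7.09, a change of -0.46 (adjusted p = 0.521). Both probes therefore had their lowest 2 arrays in the induced hairpin 2 group. In that fit over probes the difference between the hairpins passed for neither (adjusted p = 0.0890 and 0.181; 0.0417% of probes passed).

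In BNIP3L the hairpin 2 result no longer passed without replicate 1 of the uninduced arrays (-0.76, adjusted p = 0.143) or without either doxycycline replicate (0.0835 and 0.0971), and the difference between hairpins was lost without any 1 of the 12 arrays. BNIP3, its relative, had changes of -0.55 with hairpin 2, -0.53 with hairpin 1 and -0.58 in the scrambled subline (adjusted p = 0.278, 0.378 and 0.455). Its changes were thus alike in size in the 3 sublines, and none passed.

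**Figure D3:**
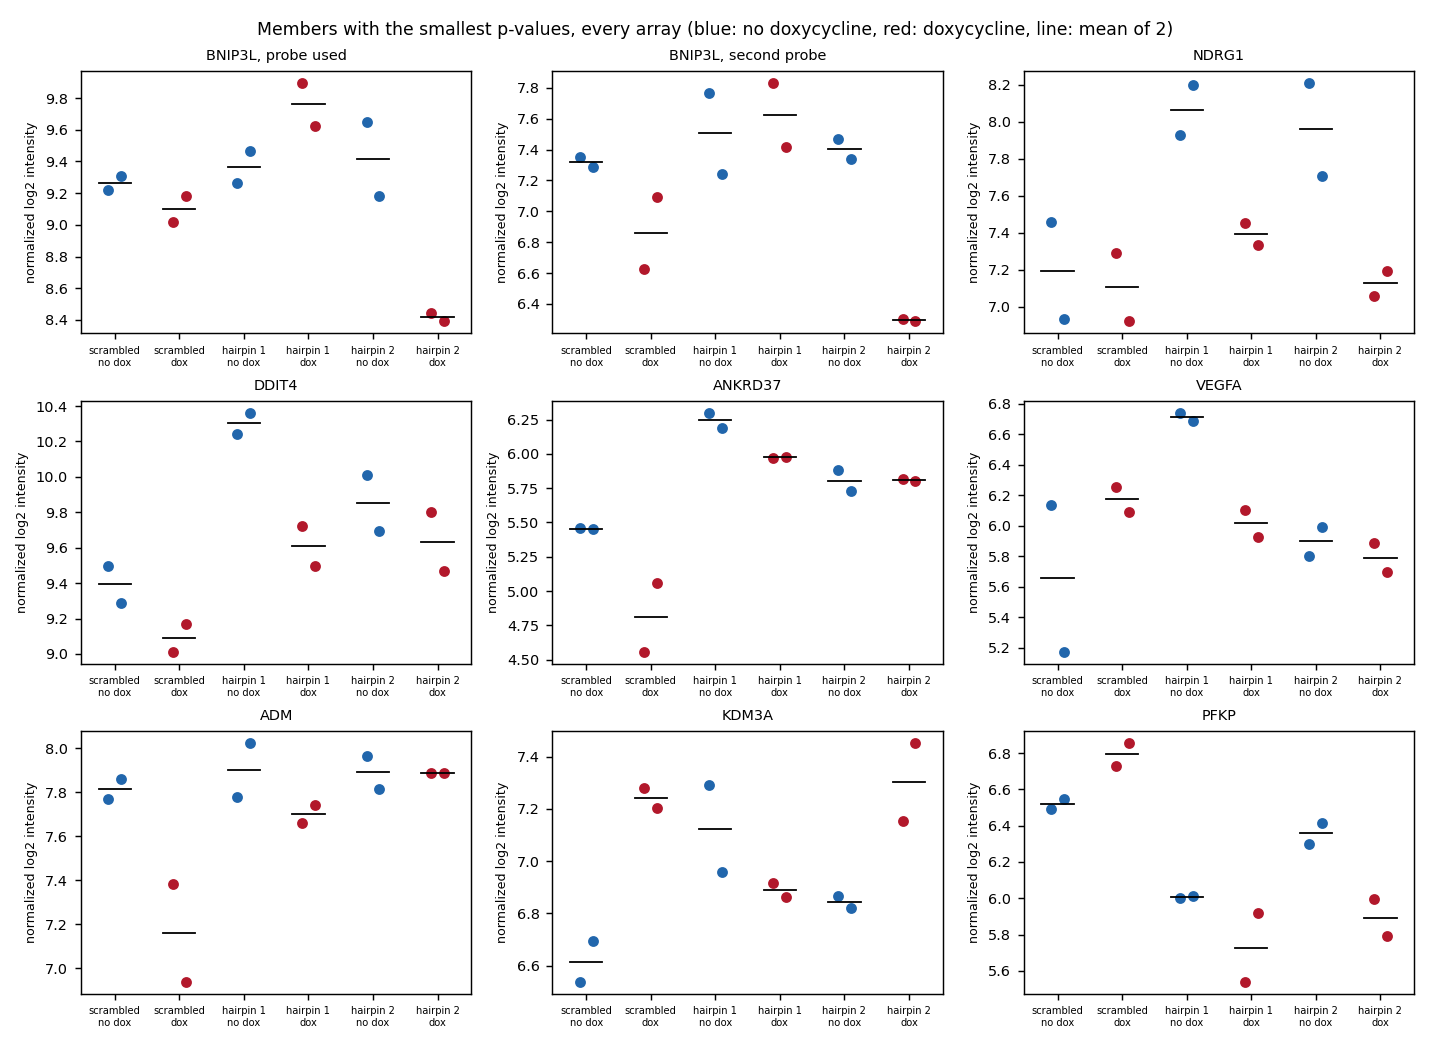
Points are the normalized log2 intensities of single arrays in the 6 groups (blue without, red with doxycycline; bar, mean of 2) for 8 genes, BNIP3L on both of its probes. Both induced hairpin 2 arrays are the lowest of 12 on each BNIP3L probe, and both uninduced hairpin 1 arrays are the highest for DDIT4, ANKRD37 and VEGFA.

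DDIT4 (REDD1), which restrains mTORC1 when oxygen, energy or nutrients run short, read 10.24 and 10.36 on the uninduced hairpin 1 arrays and 9.50 and 9.29 on the uninduced scrambled arrays. It was higher by 0.91 ± 0.18 (adjusted p = 0.0304) in the hairpin 1 subline, and the call was lost without either replicate of either group (adjusted p = 0.0744 to 0.257). The uninduced hairpin 2 arrays, at 10.01 and 9.69, also lay above both scrambled ones, a difference of 0.46 ± 0.18 that did not pass (adjusted p = 0.355) and was 0.30 without its replicate 1 and 0.62 without its replicate 2.

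With doxycycline DDIT4 read 9.72 and 9.50 in the hairpin 1 subline, a change of -0.69 ± 0.18 that did not pass (adjusted p = 0.0845). The induced hairpin 2 arrays read 9.80 and 9.47 and the induced scrambled arrays 9.01 and 9.17, changes of -0.22 and -0.30. The hairpin 1 response minus the scrambled one was -0.39 ± 0.25 (adjusted p = 0.621). All 6 hairpin arrays other than the uninduced hairpin 1 pair overlapped in range, and the 2 induced scrambled arrays were the lowest of the 12.

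NDRG1, a cytoplasmic protein induced by hypoxia, by metals and, in prostate cells, by androgen, read 8.21 and 7.71 without and 7.06 and 7.19 with doxycycline in the hairpin 2 subline. In the hairpin 1 subline it read 7.93 and 8.20 without and 7.45 and 7.33 with it. The scrambled arrays read 7.46 and 6.93 without and 7.29 and 6.92 with it, so that the uninduced arrays of both hairpin sublines were the 4 highest of the 12.

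The NDRG1 change was -0.83 ± 0.22 with hairpin 2 (adjusted p = 0.0666), -0.67 ± 0.22 with hairpin 1 (adjusted p = 0.184) and -0.09 ± 0.22 in the scrambled subline, and none passed. Without doxycycline the difference from the scrambled arrays was 0.87 ± 0.22 for hairpin 1 (adjusted p = 0.0948) and 0.76 ± 0.22 for hairpin 2 (adjusted p = 0.181). The latter was 0.50 without replicate 2 of the scrambled group and 1.03 without its replicate 1. With hairpin 2 the doxycycline change passed under 5 of 10 other settings, among them the authors' normalized values (-0.58, adjusted p = 0.0132).

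ANKRD37, an ankyrin repeat protein and a direct HIF1 target, read 6.30 and 6.19 on the uninduced hairpin 1 arrays and 5.46 and 5.45 on the uninduced scrambled ones, a difference of 0.79 ± 0.17 just outside the threshold (adjusted p = 0.0525). Its size was 0.33 without background correction. The hairpin 1 arrays with doxycycline read 5.97 and 5.98, and the hairpin 2 arrays 5.88 and 5.73 without and 5.82 and 5.80 with it. All 8 hairpin arrays lay above all 4 scrambled arrays. On the 2 scrambled arrays with doxycycline, at 4.56 and 5.06, the probe was not well above background, so the signal there was at least 1.10-fold lower than without doxycycline and did not pass (adjusted p = 0.255; measured means 4.81 against 5.46). The dimmest array of the series is 1 of those 2, and the part of its brightness in that value was not tested.

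KDM3A, a histone H3 lysine 9 demethylase and a coactivator of the androgen receptor, read 6.54 and 6.69 without and 7.28 and 7.20 with doxycycline in the scrambled subline, a change of 0.63 ± 0.16 (adjusted p = 0.255). In the hairpin 1 subline it read 7.29 and 6.96 without and 6.92 and 6.86 with it, and in the hairpin 2 subline 6.87 and 6.82 without and 7.15 and 7.45 with it. The uninduced scrambled pair was the lowest of the 12. The hairpin 1 response minus the scrambled one was -0.86 ± 0.23 (adjusted p = 0.181), and hairpin 2 minus hairpin 1 was 0.69 ± 0.23 (adjusted p = 0.266), or -0.53 and 0.44 without background correction. MXI1, an antagonist of MYC, spanned 0.49 over the 12 arrays, and its changes with doxycycline did not pass.

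Of the secreted signals, VEGFA (the main angiogenic growth factor) read 6.74 and 6.69 without and 6.10 and 5.93 with doxycycline in the hairpin 1 subline. The scrambled arrays read 6.14 and 5.17 without and 6.26 and 6.09 with it, and the hairpin 2 arrays 5.80 and 5.99 without and 5.88 and 5.69 with it. The uninduced hairpin 1 pair was the highest of the 12, and the lowest, replicate 2 of the uninduced scrambled group, was the 1 array on which the probe was not detected.

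VEGFA changed by -0.70 ± 0.24 with hairpin 1 (adjusted p = 0.218) and by 0.52 ± 0.24 in the scrambled subline (adjusted p = 0.511). The mean hairpin response minus the scrambled one was -0.92 ± 0.29 (adjusted p = 0.212). That value depended on the 2 uninduced scrambled arrays: it was -1.40 without replicate 1 (adjusted p = 0.0251) and -0.44 without replicate 2. Without background correction it was -0.41. The uninduced hairpin 1 and scrambled sublines differed by 1.06 ± 0.24 (adjusted p = 0.0649).

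ADM, the precursor of the vasodilator peptide adrenomedullin, read 7.77 and 7.86 without and 7.38 and 6.94 with doxycycline in the scrambled subline, a change of -0.65 ± 0.17 (adjusted p = 0.255). The hairpin 1 arrays read 7.78 and 8.02 without and 7.66 and 7.74 with it, and the hairpin 2 arrays 7.97 and 7.81 without and 7.89 and 7.89 with it. The 2 induced scrambled arrays were the lowest of the 12, and 1 of them is the dimmest array. The change was -0.88 without that array, replicate 1, and -0.43 without replicate 2. ANGPTL4, an inhibitor of lipoprotein lipase, did not pass in any comparison, with changes of -0.32, -0.25 and 0.26 with hairpin 1, hairpin 2 and the scrambled hairpin. Its other probe detected on all 12 arrays rose with hairpin 1, from 6.11 and 6.02 to 6.40 and 6.16. With hairpin 2 and the scrambled hairpin that probe shared the direction of the probe used. The collagen prolyl hydroxylases P4HA1 and P4HA2 had changes between -0.53 and 0.27, the lowest that of P4HA2 with hairpin 2 (adjusted p = 0.207), whose second probe gave -0.53 as well (adjusted p = 0.203 in the fit over probes).

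SLC2A1, the basal glucose transporter GLUT1, changed by -0.27, -0.22 and -0.23 with hairpin 1, hairpin 2 and the scrambled hairpin. The 9 measured genes from glucose to triose phosphate were HK1 and HK2 (hexokinases), GPI (glucose phosphate isomerase), PFKL, PFKM and PFKP (phosphofructokinase subunits), ALDOA and ALDOC (aldolases) and TPI1 (triose phosphate isomerase). In 8 of these 9 both doxycycline arrays lay below both others with hairpin 2 (23.6% of all genes), with changes from -0.47 to 0.01 and a median of -0.24. With hairpin 1 that was so for 4 of 9 (20.5% of all genes) and in the scrambled subline for 3 of 9 (20.1%), and 0 of the 9 passed in any of these comparisons. These counts rest on the brightest probe of each gene. With hairpin 2 the second TPI1 probe instead rose, from 12.57 and 12.68 to 12.84 and 13.10, and on the other ALDOA probes the groups overlapped. The second kept probes of HK1 and HK2 did lie lower.

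PFKP, the platelet-type phosphofructokinase subunit, had the smallest p-value of the 32 genes in the mean hairpin response minus the scrambled one, -0.65 ± 0.20 (adjusted p = 0.207). The scrambled arrays read 6.49 and 6.55 without and 6.73 and 6.86 with doxycycline. The hairpin 1 arrays read 6.0 and 6.01 without and 5.54 and 5.92 with it, and the hairpin 2 arrays 6.30 and 6.42 without and 5.99 and 5.79 with it. All 4 scrambled arrays lay above all 8 hairpin arrays. The change was -0.28 ± 0.16 with hairpin 1, -0.47 ± 0.16 with hairpin 2 and 0.27 ± 0.16 in the scrambled subline, and the hairpin 2 response minus the scrambled one was -0.74 ± 0.23 (adjusted p = 0.183). Without background correction the mean difference was -0.32 and that of hairpin 2 -0.37.

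PFKFB3 and PFKFB4, which set the level of the phosphofructokinase activator fructose 2,6-bisphosphate, changed by -0.33 to 0.29 on the probes used and did not pass. The second PFKFB3 probe, detected on all 12 arrays, read 6.18 and 5.98 without doxycycline in the scrambled subline. It was lower than both on each scrambled array with doxycycline, where the arrays of the probe used overlapped. With hairpin 1 and hairpin 2 the arrays of that second probe overlapped. The 5 genes from GAPDH to pyruvate kinase (GAPDH, PGK1, PGAM1, ENO1 and PKM) had changes from -0.36 to 0.13 over the 3 sublines, with medians of -0.08 in the scrambled subline, -0.09 with hairpin 1 and -0.03 with hairpin 2. These values too rest on the brightest probe of each gene. Another PKM probe rose in the scrambled subline, from 8.08 and 7.87 to 8.35 and 8.27, where the probe used fell. The second PGK1 probe fell with hairpin 1, from 9.87 and 9.72 to 9.43 and 9.35, where the arrays of the probe used overlapped. The other GAPDH probes had lower means with doxycycline in all 3 sublines, as the probe used did. LDHA, which turns pyruvate into lactate, read 13.30 and 13.13 without and 12.82 and 12.81 with doxycycline in the hairpin 1 subline, a change of -0.40 ± 0.16 (adjusted p = 0.301), and it changed by -0.24 and 0.0048 in the hairpin 2 and scrambled sublines. On the probes used, HK1, TPI1, PFKM and EGLN1 had the narrowest spans over the 12 arrays, at 0.35, 0.38, 0.39 and 0.40. The second kept probes of HK1 and TPI1 spread wider, from 5.11 to 6.11 and from 12.57 to 13.10. The median span was 0.71 for the 32 genes and 0.73 for all genes tested.

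Outside the 36 genes, 6 genes of the same pathways passed in at least 1 comparison, against 3.41% of all genes tested, and 2 of the 32 genes themselves did so. Of the 6, 4 were among 27 measured of 34 listed other HIF targets, 1 among 10 measured glycogen and gluconeogenesis genes and 1 among 14 other transport and glycolysis genes. The remaining lists, with 18, 11, 6 and 13 measured genes, gave 0. The lists were chosen with earlier results known, so these counts are a description. AK4, a mitochondrial adenylate kinase, read 10.10 and 10.11 without and 8.91 and 8.76 with doxycycline in the hairpin 1 subline. The scrambled arrays read 10.20 and 10.15 without and 10.11 and 10.01 with it, and the hairpin 2 arrays 10.23 and 10.11 without and 9.67 and 9.87 with it. Both induced hairpin 1 arrays were the lowest of the 12, followed by both induced hairpin 2 arrays. AK4 fell by 1.27 ± 0.15 with hairpin 1 (adjusted p = 0.000586) in the full data and without any 1 array. Its change with hairpin 2 was -0.40 ± 0.15 (adjusted p = 0.193). The hairpin 1 response minus the scrambled one was -1.16 ± 0.21 (adjusted p = 0.0339), a call lost without any 1 of the 12 arrays (adjusted p = 0.0558 to 0.121).

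The stanniocalcins STC1 and STC2 are secreted glycoproteins linked to calcium and phosphate handling. STC1 fell with hairpin 2 by 0.73 ± 0.16 (adjusted p = 0.0309), from 9.20 and 9.34 to 8.45 and 8.65. It was higher by 0.86 ± 0.16 in the uninduced hairpin 1 subline than in the scrambled one (adjusted p = 0.0213, 9.37 and 9.44 against 8.64 and 8.45). With doxycycline the scrambled arrays read 8.48 and 8.72 and the hairpin 1 arrays 9.25 and 9.16. The uninduced hairpin 2 arrays thus also lay above the scrambled ones, and the induced hairpin 2 arrays lay near the scrambled level. STC2 fell with hairpin 1 by 0.82 ± 0.17 (adjusted p = 0.0351), from 7.67 and 7.69 to 6.99 and 6.72. The scrambled arrays of STC2 read 7.05 and 7.26 without and 7.02 and 6.80 with doxycycline. Neither STC1 nor STC2 passed in the mean hairpin response minus the scrambled one (-0.52 and -0.27, adjusted p = 0.288 and 0.648), nor in that of either hairpin alone. On the uninduced arrays STC2 also lay higher with hairpin 1 than in the scrambled subline, which did not pass (0.52, adjusted p = 0.270). These 3 calls were each lost without any 1 array of the groups compared, with adjusted p up to 0.222, 0.213 and 0.221, and that of STC2 also without either uninduced hairpin 2 array (0.0545).

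CA12, a membrane carbonic anhydrase that helps export acid, differed between sublines, and its changes with doxycycline did not pass. The scrambled arrays read 7.97 and 7.91 without and 8.27 and 8.06 with doxycycline, while the 8 hairpin arrays read between 6.67 and 6.95. The uninduced hairpin 1 subline was lower by 1.22 on the log2 scale (difference -1.22 ± 0.14, adjusted p = 0.000767) and the hairpin 2 subline likewise (-1.14 ± 0.14, adjusted p = 0.00192), in the full data and without any 1 array. CA9, its better-known relative, was not measured here.

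In the list of glycogen and gluconeogenesis genes (10 measured of 15) 1 gene passed. PYGL, the liver-type glycogen phosphorylase that frees glucose phosphate from glycogen, fell with hairpin 1 by 0.96 ± 0.15 (adjusted p = 0.00427), from 7.39 and 7.54 to 6.48 and 6.52. With hairpin 2 it fell by 0.66 ± 0.15 (adjusted p = 0.0346), from 7.41 and 7.23 to 6.67 and 6.66. The scrambled arrays read 7.07 and 7.17 without and 6.95 and 7.04 with doxycycline, and all 4 induced hairpin arrays lay below them. The mean hairpin response minus the scrambled one was -0.68 ± 0.18 and did not pass (adjusted p = 0.150). With hairpin 1 PYGL no longer passed without replicate 2 of the uninduced group (adjusted p = 0.0519) or replicate 1 of the induced one (0.0588), and with hairpin 2 without any 1 array of its groups (0.0953 to 0.235) or of induced hairpin 1 (0.0501).

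SLC2A12, the glucose transporter GLUT12, was the 1 of 14 measured of 26 other transport and glycolysis genes to pass. It rose with hairpin 2 by 0.69 ± 0.15 (adjusted p = 0.0349), from 8.20 and 8.30 to 8.82 and 9.06, a call lost without any 1 of those 4 arrays (adjusted p up to 0.244) or without either induced hairpin 1 array (0.0505). The hairpin 1 arrays read 8.50 and 8.40 without and 8.81 and 8.84 with doxycycline, a change of 0.37 (adjusted p = 0.336). The scrambled arrays, at 7.74, 7.76, 7.74 and 7.99, lay below all 8 hairpin arrays.

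**Figure D4:**
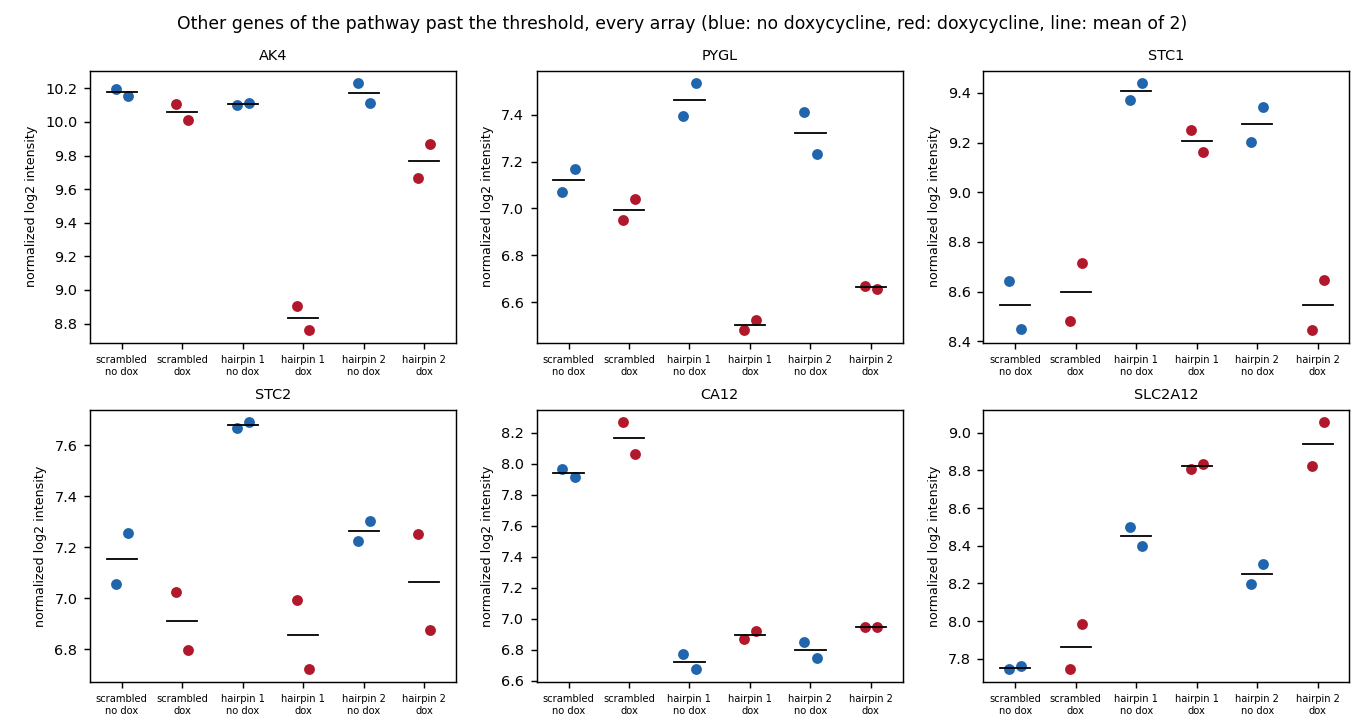
Points are the normalized log2 intensities of single arrays in the 6 groups (blue without, red with doxycycline; bar, mean of 2) for the 6 other pathway genes past the threshold. AK4 and PYGL are lowest on the induced hairpin arrays, CA12 is lower on all 8 hairpin arrays than on the 4 scrambled ones, and SLC2A12 is higher on them.

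In the remaining lists 0 genes passed in any of the 9 comparisons: 18 measured of 21 other regulators of HIF, 11 of 13 genes of pyruvate entry into mitochondria, 6 of 7 of the pentose phosphate pathway and 13 of 16 of the tricarboxylic acid cycle. Their smallest p-values in the mean hairpin response minus the scrambled one were those of EPAS1 (HIF-2 alpha; adjusted p = 0.186), whose probe was detected on 5 of the 12 arrays and whose size of difference is therefore not given, of MPC1, a subunit of the mitochondrial pyruvate carrier, at 0.26 ± 0.23 (adjusted p = 0.683), of PGLS, a lactonase of the pentose phosphate pathway, at 0.27 ± 0.21 (adjusted p = 0.637) and of SUCLA2, a subunit of succinyl-CoA ligase, at 0.40 ± 0.19 (adjusted p = 0.408). The medians with hairpin 1 and hairpin 2 were 0.08 and 0.01 for the HIF regulators and -0.12 and 0.02 for the other HIF targets. For the tricarboxylic acid cycle they were 0.11 and 0.08.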

How the data were processed

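Per the labels' protocols, RNA came from RNeasy extraction, and 500 ng per sample were biotin-labelled for 1 array. The deposited non-normalized table holds bead intensity and a detection p-value for 47323 probes; per the submitters' processing notes BeadStudio and Partek were used, with versions not given in the sources used here. The deposited value table holds the authors' normalized log2 intensities and served as an alternative.

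Intensities were background-corrected, quantile-normalized and put on a log2 scale with neqc (limma 3.58.1, R 4.3.3; offset 16). Probes with detection p under 0.01 on 2 or more arrays were kept, and named from the platform annotation. For 11164 genes the probe with the highest mean was tested with lmFit and eBayes on 6 group means (6 residual and 7.91 prior degrees of freedom), in 9 comparisons. A second fit took all 19172 kept probes. The fit was also run on simulated data with independent noise, which does not model spread shared by arrays, and no result here rests on it. Values by array are given for each of the 32 genes that passed in any comparison and for the 2 with the smallest p in each; other pathway genes are named, with values by array, where they passed, or as the smallest p of a list. The members and lists were chosen with earlier results of these data known. Alternatives were other background corrections, scalings, filters, probe averaging, array weights, a replicate block, fits of the compared groups alone, and leaving out each array. Array number limits the precision.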

Additional observations from a re-analysis of the deposited data

Results flagged for a closer look

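The response of BNIP3L to doxycycline differed between the sublines of the 2 HNF4G hairpins: hairpin 2 minus hairpin 1 was -1.39 ± 0.25 on the log2 scale (limma, adjusted p = 0.0444). BNIP3L fell by 1.00 in the hairpin 2 subline and changed by 0.39 in the hairpin 1 subline (adjusted p = 0.386), with no overlap between the 2 arrays of each arm in either. The second BNIP3L probe gave a difference of -1.23 (adjusted p = 0.181 in the fit over probes).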

How the results depend on the processing

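Counts below are of the 32 genes past an adjusted p of 0.05. With doxycycline and hairpin 1 (0 in the reported fit) the count was 1 without background correction, with the authors' values and with probes detected on all arrays (DDIT4), and 2 with an offset of 50 (DDIT4 and NDRG1). With hairpin 2 (1, BNIP3L) it was 2 under those 4 settings and with array weights, where NDRG1 was added, and 0 to 1 when 1 array was left out. The mean hairpin response and the hairpin 1 response minus the scrambled one (0 each) gave 0 to 1 when 1 array was left out, the 1 being VEGFA without replicate 1 of the uninduced scrambled group. The hairpin 2 response minus the scrambled one (0) gave 1, BNIP3L, without background correction, with an offset of 50 and with the authors' values. Hairpin 2 minus hairpin 1 (1) gave 0 without a filter, with probes averaged, with the replicate block (BNIP3L adjusted p = 0.0684), in the fit of the groups compared and without any 1 array (0 to 0; adjusted p = 0.0601 to 0.214). The uninduced hairpin 1 subline against the scrambled one (1, DDIT4) gave 3 without background correction, with an offset of 50 and with the authors' values (DDIT4, VEGFA and NDRG1), 2 with median scaling, with averaged probes (DDIT4 and ANKRD37 in both) and with detection on all arrays (DDIT4 and NDRG1), 0 without a filter and in the fit of the groups compared, and 0 to 2 when 1 array was left out. The uninduced hairpin 2 subline (0) gave 1, NDRG1, with an offset of 50. The other settings left these counts as reported; the cause was not tested, except that no filter tests 20046 genes and detection on all arrays 8817. Some sizes were over 1.5 times smaller without background correction, among them those of PYGL with hairpin 1 (-0.59) and hairpin 2 (-0.41) and of STC2 with hairpin 1 (-0.54), which still passed. No single gene reversed in 612 recomputed values (519 kept their side of the threshold, 73 lost and 20 gained the call). Same-numbered arrays showed little shared deviation (correlations of -0.03 to 0.07 over 15 pairs of groups, 0 over 0.1). That cannot settle whether the numbers pair arrays, because the labels do not say how the replicates were made. Besides BNIP3L, the replicate block ended the AK4 call for hairpin 1 against scrambled (adjusted p = 0.0503).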
